A study of Homo sapiens with 23 samples.

Results

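Cholesterol synthesis and its regulation are described here through 29 genes, taken from a list of names, as measured by RNA sequencing in LNCaP and LAPC4, cell lines from prostate cancers. The list holds 18 enzymes of the synthesis pathway, 5 genes of sterol sensing, 2 of sterol transport and storage, and 4 of the liver X receptor (LXR) and efflux branch. All 29 were found, each on a single line, among 60683 genes of the LNCaP overexpression and knockdown table, 58219 genes of the LAPC4 table and 54648 symbols of the drug table. The transcription factor ONECUT2 (OC2), which binds DNA through a CUT domain and a homeodomain, was raised, lowered or inhibited across 23 libraries in 9 groups. In LNCaP, OC2 was overexpressed (OC2 OE, 2 libraries) or targeted with a short hairpin (shOC2, 2 libraries), and the references are shCon (2 libraries) and a group labelled control (2 libraries). In LAPC4, OC2 OE (3 libraries) stands beside Vec (3 libraries). In the drug experiment, LNCaP received both enzalutamide, an antiandrogen, and an inhibitor of OC2, each at 10 µM for 7 days (Combine, 3 libraries), enzalutamide alone (Enza, 3 libraries) or vehicle (3 libraries). No arm received the inhibitor alone, so its share of a difference from vehicle cannot be told apart from that of enzalutamide. Setting Combine beside Enza does not part them either, because the counts of these arms came from different counting steps. LNCaP and LAPC4 are androgen-sensitive lines derived from human prostate carcinomas. The medium was RPMI-1640 for LNCaP and IMDM for LAPC4, the second with 1 nM of the synthetic androgen R1881, so line and medium cannot be told apart. The labels do not say what the LNCaP control carried, whether a line was a clone, or whether libraries of a group came from separate cultures. The p-values below therefore measure the spread between these libraries, which may be technical.

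Cells build cholesterol from acetyl-CoA through mevalonate, isoprenoid diphosphates and squalene to lanosterol, which a further set of enzymes trims and reduces to cholesterol. When sterols are scarce, SCAP escorts the SREBP transcription factors (from SREBF1 and SREBF2) out of the endoplasmic reticulum, and they switch on most of these enzymes and INSIG1. When sterols are plentiful, INSIG proteins hold SCAP back, and oxysterols activate LXR, which switches on the efflux pumps ABCA1 and ABCG1, the ubiquitin ligase MYLIP and SREBF1. Androgens are known to raise this programme in prostate cancer cells.

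The sequence upstream of SREBF2 is shown because among the members' windows only this held the sterol element TCACNCCAC. It also held an OC2-type core, which played no part in the choice. RefSeq windows (GRCh38.p14) of 250 bases before a gene's start were held for 25 of the 29 genes, in 34 windows. ACAT2, FDFT1, SQLE and ABCG1 have none in the table used. The letters TCACNCCAC, the form of the sterol element searched on both strands, stood in 1 of the 34 windows (2.94%), against 0.883% of all 35116 windows. The core ATCGAT stood in 1 window (2.94%), against 0.655% of all, and ATTGAT in 1, that of CYP51A1, against 5.58%. CCAAT, the box of NF-Y, which often acts beside SREBPs, stood in 21 windows (61.8%), against 32% of all. A form of the LXR element, AGGTCA repeated after a gap of 4 bases, stood in none, against 0.0142% of all. The shorter CACNCCAC, which lies within the longer form and was tried after its result was seen, stood in 5 windows (14.7%), those of IDI1, SC5D, INSIG1, SREBF2 and ABCA1, against 4.87% of all. In the SREBF2 stretch at chr22:41832855-41833054 on the plus strand, which covers the bases from 250 to 51 before the start, capitals mark the core ATCGAT, whose first base lies 148 bases before the start, and the sterol element, whose first base lies 133 bases before it. These matches describe letters only.
SREBF2: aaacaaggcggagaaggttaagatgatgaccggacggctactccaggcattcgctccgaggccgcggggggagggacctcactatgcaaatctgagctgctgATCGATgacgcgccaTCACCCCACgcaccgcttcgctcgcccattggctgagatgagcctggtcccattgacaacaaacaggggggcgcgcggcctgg

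Libraries held 20964025 to 23272088 counts in the LNCaP table, 28586064 to 30465978 in the LAPC4 table and 22615580 to 28241076 in the drug table. Levels are given as CPM, the count scaled to a fixed library size by TMM, set once per table. ONECUT2, the check of the labels, stood at 332 and 304 CPM in LNCaP OC2 OE, at 12.1 and 12.2 CPM in shOC2, at 20.4 and 21.2 CPM in shCon and at 24.6 and 30.7 CPM in control. In LAPC4 it stood at 968, 805 and 913 CPM in OC2 OE and at 13.3, 17.1 and 16.2 CPM in Vec. It therefore followed the labels in each genetic arm, although the knockdown left more than 12 CPM (log2 fold change -0.77 against shCon, edgeR adjusted p = 4.84e-05). In the drug experiment ONECUT2 stood at 13.7, 16.0 and 13.3 CPM in Combine, 20.8, 30.3 and 27.0 CPM in Enza and 17.0, 16.7 and 14.1 CPM in vehicle, higher in Enza than in vehicle (0.71) and not called in Combine (-0.15). None of 8 luminal prostate markers was at 0 in any library, while 3 endothelial markers summed to at most 19.9 CPM, 3 blood markers to at most 22.6 CPM and 5 stromal markers to at most 49.9 CPM. The blood sum was almost wholly CD68 and was highest in shOC2, at 22.6 CPM in both libraries, against 4.26 to 4.57 CPM in shCon. The stromal sum was 16.9 to 19.4 CPM in LAPC4 OC2 OE, against 3.48 to 5.65 CPM in Vec. Their part in the results was not tested. In bulk RNA, fewer cells expressing a gene and less RNA per cell cannot be told apart. Libraries that stand apart from others of their group are the first Enza library, LAPC4 Vec replicate 3 and Combine replicate 2. Values without them are given for genes they moved and beside the counts against Vec and vehicle, but not beside the counts of the other contrasts. The Enza columns hold whole counts and the Combine and vehicle columns estimated counts, so Enza came through another counting step and each Enza contrast carries that difference too.

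Strand of counting is not given in the sources used here, so reads of overlapping genes may be shared. CYP51A1, the lanosterol demethylase, is the member most exposed. In GENCODE 29 (GRCh38) it lies on chromosome 7 from 92112151 to 92134803 on the minus strand, shares 79.4% of its exonic length with the same-strand gene AC000120.2 and has 3 named pseudogenes. Its level was 216 to 220 CPM in LNCaP OC2 OE in the table of estimated counts but 15.9 to 20.4 CPM over the LAPC4 libraries, which hold whole counts. FDPS has 8 named pseudogenes and shares 18.6% of its exonic length with the antisense RUSC1-AS1, HSD17B7 has 2 named pseudogenes, ACAT2 shares 33.9% with the opposite-strand SOD2-OT1, HMGCS1 15% with AC114947.2 and IDI1 14.8% with IDI2-AS1. Values of these genes are uncertain to that extent.

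Per kilobase of exon, FDFT1 ranked between 1 and 5 of the 29 genes in each of the 9 groups. FDFT1, which encodes squalene synthase, averaged 107 CPM per kb in LNCaP OC2 OE and 138 CPM per kb in control. SREBF1 averaged 117 CPM per kb in LNCaP OC2 OE and 89.2 CPM per kb in control. ABCA1 was lowest in each of the LNCaP groups, at 0.0146 to 0.325 CPM per kb, while LAPC4 Vec had 1.54 CPM per kb of ABCA1 and its lowest gene was STARD4 at 0.732 CPM per kb.

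**Figure D1:**
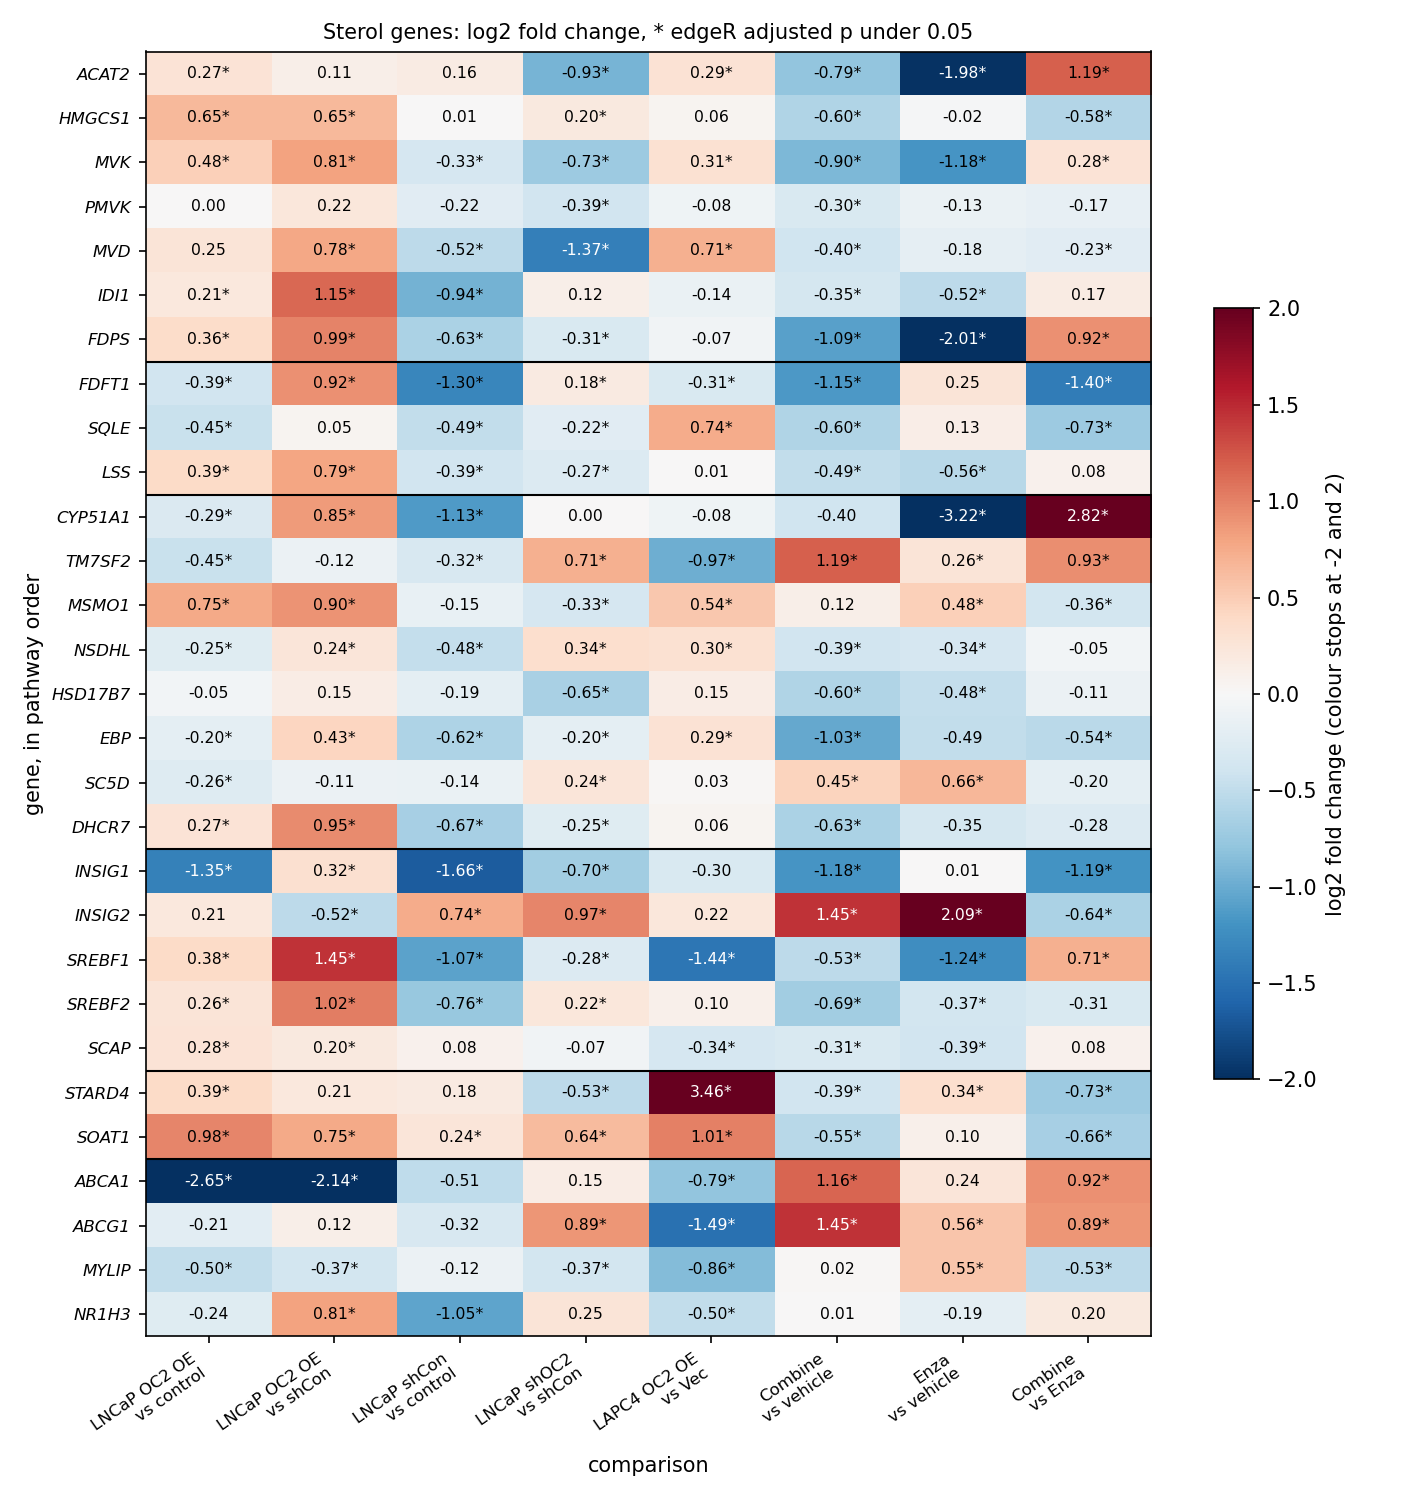
Log2 fold changes (colour and printed value) of the 29 sterol genes, in pathway order down the page, in 8 comparisons, with the group named first on top of the ratio and asterisks at an edgeR adjusted p under 0.05. Horizontal lines part the mevalonate arm, squalene arm, post-lanosterol enzymes, sterol sensing, transport and storage, and the LXR and efflux genes. INSIG1 is at -1.35 against control and at 0.32 against shCon in the first 2 columns.

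The first comparison asked what overexpressed OC2 changes in LNCaP. Against control, 5 of the 7 mevalonate enzymes, the later enzymes LSS, MSMO1 and DHCR7, and SREBF1 were higher in OC2 OE. INSIG1, ABCA1 and other later enzymes were lower. Calls of several enzymes in either direction ended when a library was left out, as given below. Of the 29 genes, 13 rose and 10 fell (median log2 fold change 0.21), where 60.8% of all 17046 genes tested were called (31.6% higher, 29.3% lower, median 0.02). Against shCon, 18 rose and 3 fell (median 0.43), where 64% of 17182 genes were called (33.2% higher, 30.8% lower, median 0.01). With library totals in place of TMM, the count against shCon was 15 higher and 5 lower, and the median of all genes moved by -0.17. Both comparisons use the same 2 OC2 OE libraries. The 8 luminal markers summed to 3225 to 3427 CPM in OC2 OE, against 4128 to 4342 CPM in shCon and 5629 to 5790 CPM in control. KLK3 was the largest part of each sum, at 989 to 1064 CPM in OC2 OE, 1773 to 1898 CPM in shCon and 3100 to 3220 CPM in control. Against control, KLK2, KRT18, EPCAM and TRPM8 were lower too, FOXA1 and KRT8 were higher, and HOXB13 overlapped. Against shCon, KLK2 and KRT18 were higher and the other luminal markers lower. The stromal markers summed to 13.9 to 14.2 CPM in OC2 OE, against 29.6 to 35.3 CPM in shCon and 14.2 to 14.9 CPM in control. Their part in the result was not tested. With both control sets, 11 members rose, where 20.3% of the 16522 genes tested in both did so, and 2 fell, where 15.1% did. A further 5 members, FDFT1, CYP51A1, NSDHL, EBP and INSIG1, were called in opposite directions against the 2 sets, an outcome met by 8.24% of all genes. The summed level of the 18 synthesis enzymes was 2629 and 2604 CPM in OC2 OE, against 2670 and 2600 CPM in control and 1595 and 1687 CPM in shCon. The OC2 OE sum thus overlapped control and exceeded shCon.

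In the mevalonate arm, 5 of 7 enzymes rose against either set and none fell. HMGCS1, which makes HMG-CoA, stood at 113 and 127 CPM in OC2 OE, at 93.4 and 82.0 CPM in shOC2, at 73.9 and 79.0 CPM in shCon and at 70.0 and 81.4 CPM in control. Both OC2 OE libraries exceeded all others, and the log2 fold change was 0.65 against either set (SE 0.09 against control, 0.07 against shCon; adjusted p = 2.30e-04 and 1.59e-05). Mevalonate kinase, MVK, stood at 49.9 and 50.9 CPM in OC2 OE, at 17.4 and 16.8 CPM in shOC2, at 27.1 and 30.1 CPM in shCon and at 38.3 and 33.4 CPM in control. It rose by 0.48 on the log2 scale against control and by 0.81 against shCon. FDPS, farnesyl diphosphate synthase, stood at 247 and 243 CPM in OC2 OE, at 101 and 96.7 CPM in shOC2, at 122 and 124 CPM in shCon and at 188 and 191 CPM in control. MVK and FDPS had the same order of the 4 groups, with no overlap between groups, as had MVD, LSS, MSMO1, DHCR7 and SREBF1. How many of all genes have this order was not counted. The log2 fold change of FDPS was 0.36 against control and 0.99 against shCon. IDI1, the isopentenyl diphosphate isomerase, stood at 141 and 146 CPM in OC2 OE, at 69.8 and 68.9 CPM in shOC2, at 60.5 and 68.2 CPM in shCon and at 119 and 127 CPM in control. Its rise was 1.15 against shCon (SE 0.06, adjusted p = 1.82e-07) but 0.21 against control (adjusted p = 0.0332), and the call against control ended without control replicate 1 (0.15, adjusted p = 0.0976), OC2 OE replicate 1 (0.23, 0.141) or OC2 OE replicate 2 (0.19, 0.249). MVD, mevalonate diphosphate decarboxylase, stood at 57.1 and 48.2 CPM in OC2 OE, at 12.7 and 10.8 CPM in shOC2, at 29.6 and 31.4 CPM in shCon and at 47.0 and 40.4 CPM in control. It rose against shCon (0.78) and did not pass the test against control (0.25, adjusted p = 0.0632). ACAT2, the cytosolic thiolase that opens the pathway, stood at 61.0 and 64.4 CPM in OC2 OE, at 29.9 and 30.7 CPM in shOC2, at 58.0 and 58.2 CPM in shCon and at 49.2 and 54.0 CPM in control. The shOC2 libraries were low beside all others. Its rise of 0.27 against control ended without control replicate 1 (0.20, adjusted p = 0.0844) or either OC2 OE replicate (0.31, 0.0559 and 0.23, 0.161), and 0.11 against shCon did not pass. PMVK, phosphomevalonate kinase, passed neither test (0.00 and 0.22).

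From squalene onward the enzymes parted. FDFT1 stood at 556 and 552 CPM in OC2 OE, at 340 and 316 CPM in shOC2, at 286 and 297 CPM in shCon and at 727 and 707 CPM in control. The OC2 OE libraries lay between the control sets, so FDFT1 fell by 0.39 against control (adjusted p = 5.59e-04) and rose by 0.92 against shCon (adjusted p = 1.26e-07). CYP51A1 stood at 216 and 220 CPM in OC2 OE, at 121 and 120 CPM in shOC2, at 120 and 121 CPM in shCon and at 251 and 277 CPM in control. It too lay between them, at -0.29 and 0.85, and the fall against control ended without OC2 OE replicate 1 (-0.27, adjusted p = 0.0918) or 2 (-0.30, 0.0627). SQLE, squalene epoxidase, stood at 69.8 and 69.5 CPM in OC2 OE, at 58.3 and 56.0 CPM in shOC2, at 62.7 and 71.3 CPM in shCon and at 91.3 and 96.4 CPM in control. SQLE fell against control (-0.45) and overlapped shCon (0.05, adjusted p = 0.534). LSS, lanosterol synthase, rose against both sets (0.39 and 0.79). MSMO1, a C4-methyl sterol oxidase, stood at 127 and 126 CPM in OC2 OE, at 52.8 and 54.9 CPM in shOC2, at 64.7 and 70.9 CPM in shCon and at 77.2 and 72.4 CPM in control. OC2 OE exceeded every other library here, and MSMO1 rose by 0.75 against control (SE 0.07, adjusted p = 1.76e-05) and by 0.90 against shCon (SE 0.06, adjusted p = 6.20e-07). DHCR7, which reduces 7-dehydrocholesterol, stood at 344 and 332 CPM in OC2 OE, at 150 and 142 CPM in shOC2, at 167 and 182 CPM in shCon and at 298 and 256 CPM in control. Its rise was 0.95 against shCon and 0.27 against control, and the call against control ended without control replicate 2 (0.16, adjusted p = 0.0728), OC2 OE replicate 1 (0.25, 0.121) or OC2 OE replicate 2 (0.30, 0.0666). TM7SF2, a sterol C14 reductase, stood at 172 and 158 CPM in OC2 OE, at 299 and 283 CPM in shOC2, at 180 and 178 CPM in shCon and at 240 and 205 CPM in control. TM7SF2 was highest in shOC2 and fell in OC2 OE against control (-0.45), but did not pass against shCon (-0.12). NSDHL, a C4 decarboxylase, and EBP, the sterol isomerase, fell against control (-0.25 and -0.20) and rose against shCon (0.24 and 0.43). The calls of both against control ended without either OC2 OE replicate (NSDHL -0.21, adjusted p = 0.218, and -0.29, 0.0814; EBP -0.24, 0.131, and -0.16, 0.326), without control replicate 1 (NSDHL -0.27, 0.0514; EBP -0.18, 0.0822) and, for NSDHL, without control replicate 2 (-0.24, 0.0694), and that of NSDHL against shCon ended without OC2 OE replicate 1 (0.29, 0.091), OC2 OE replicate 2 (0.21, 0.161) or shCon replicate 1 (0.17, 0.17). SC5D, the C5 desaturase, fell against control (-0.26), a call that ended without OC2 OE replicate 1 (-0.23, 0.151) or 2 (-0.27, 0.0908). HSD17B7, the C3 ketoreductase, passed neither test (-0.05 and 0.15).

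Among the sensing genes, INSIG1 depended most on the control set. INSIG1 stood at 154 and 152 CPM in OC2 OE, at 77.6 and 72.2 CPM in shOC2, at 115 and 129 CPM in shCon and at 396 and 375 CPM in control. OC2 OE was far below control and just above shCon. INSIG1 fell by 1.35 against control (SE 0.07, adjusted p = 2.37e-07) and rose by 0.32 against shCon (SE 0.06, adjusted p = 0.00106), and the rise ended without OC2 OE replicate 1 (0.32, adjusted p = 0.0779) or 2 (0.34, 0.0684). SREBF1 stood at 972 and 908 CPM in OC2 OE, at 280 and 282 CPM in shOC2, at 357 and 328 CPM in shCon and at 786 and 647 CPM in control. SREBF2 stood at 462 and 432 CPM in OC2 OE, at 259 and 250 CPM in shOC2, at 211 and 228 CPM in shCon and at 394 and 346 CPM in control. For both genes the OC2 OE libraries were highest and control came next. SREBF1 rose by 0.38 against control (adjusted p = 0.00549) and 1.45 against shCon (adjusted p = 2.61e-08). SREBF2 rose by 0.26 and 1.02, and its call against control ended without control replicate 2 (0.16, adjusted p = 0.103), OC2 OE replicate 1 (0.21, 0.184) or OC2 OE replicate 2 (0.31, 0.0542). SCAP stood at 190 and 174 CPM in OC2 OE, at 155 and 144 CPM in shOC2, at 154 and 161 CPM in shCon and at 160 and 137 CPM in control. Its libraries lay close together, and SCAP rose by 0.28 against control and 0.20 against shCon. Both calls ended without OC2 OE replicate 1 (0.22, adjusted p = 0.191, and 0.15, 0.111), the first also without control replicate 2 (0.17, 0.139), and the second without shCon replicate 1 (0.17, 0.145) or 2 (0.23, 0.0805). INSIG2, the second INSIG protein, stood at 9.12 and 9.80 CPM in OC2 OE, at 26.0 and 26.8 CPM in shOC2, at 13.1 and 13.9 CPM in shCon and at 8.03 and 8.10 CPM in control. INSIG2 fell against shCon (-0.52), a call that ended without OC2 OE replicate 1 (-0.46, adjusted p = 0.0503), and did not pass against control (0.21).

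**Figure D2:**
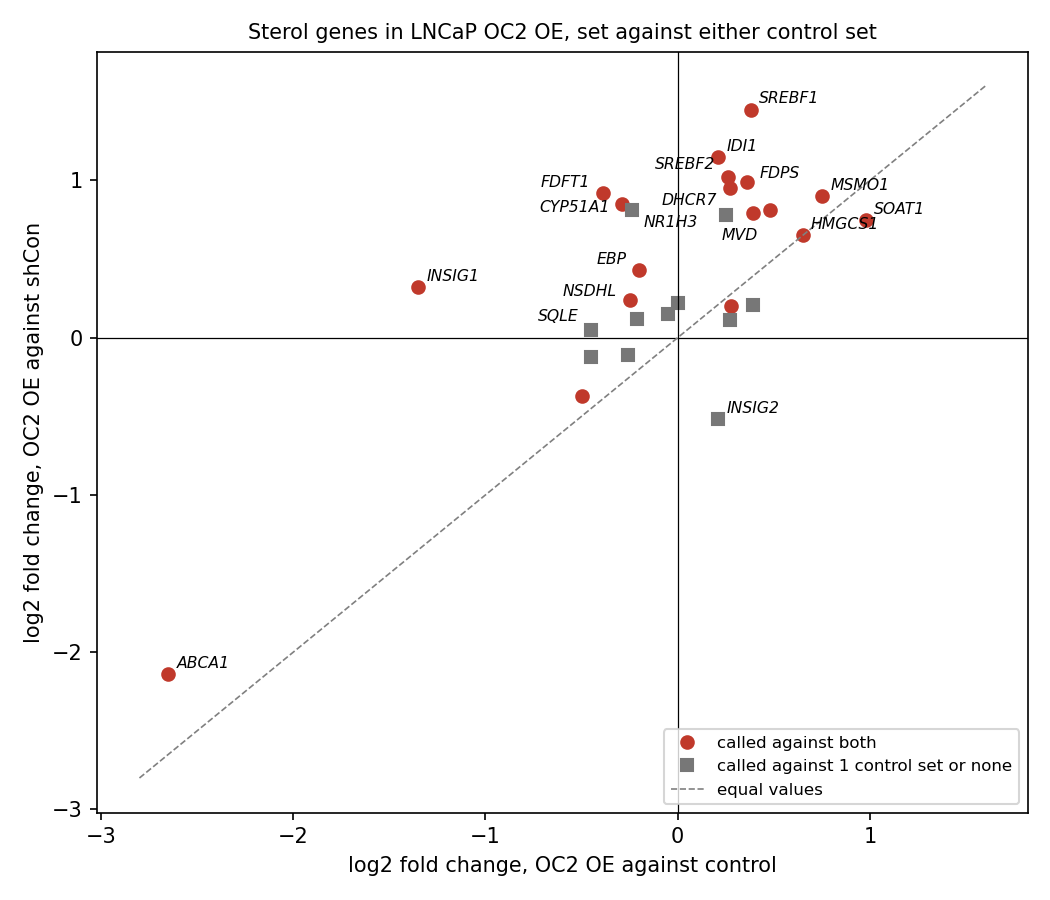
Log2 fold change of each of the 29 genes in LNCaP OC2 OE against shCon (vertical axis) and against control (horizontal axis). Red circles are genes called against both sets, grey squares those called against 1 set or none, and the dashed line marks equal values. SREBF1 lies at 1.45 on the vertical and 0.38 on the horizontal axis, INSIG1 at 0.32 and -1.35.

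SOAT1, which esterifies cholesterol for storage, stood at 69.6 and 67.9 CPM in OC2 OE, at 65.0 and 61.4 CPM in shOC2, at 40.0 and 41.5 CPM in shCon and at 36.1 and 32.7 CPM in control. Overexpression and knockdown libraries were both above both reference sets, and SOAT1 rose by 0.98 against control and by 0.75 against shCon in OC2 OE. ABCA1, the cholesterol efflux pump, was scarce, with 4 and 3 counts in OC2 OE, 23 and 13 in shOC2, 24 and 12 in shCon and 16 and 30 in control. ABCA1 fell by 2.65 against control (SE 0.52, adjusted p = 0.00152) and by 2.14 against shCon (SE 0.57, adjusted p = 0.00748). The call against shCon ended without OC2 OE replicate 1 (-2.34, adjusted p = 0.117), OC2 OE replicate 2 (-1.94, 0.146) or shCon replicate 1 (-1.56, 0.0853), with no filter on low counts (-2.12, 0.0705) and in DESeq2 (-2.17, 0.0555). MYLIP stood at 13.9 and 12.3 CPM in OC2 OE, at 13.0 and 13.1 CPM in shOC2, at 17.6 and 16.2 CPM in shCon and at 17.6 and 19.1 CPM in control. MYLIP fell against control (-0.50) and shCon (-0.37), and the call against shCon ended without each single library of the 4 (adjusted p = 0.0517 to 0.127). NR1H3, which encodes LXR alpha, stood at 18.8 and 18.7 CPM in OC2 OE, at 13.0 and 12.1 CPM in shOC2, at 10.00 and 11.3 CPM in shCon and at 23.3 and 20.5 CPM in control. NR1H3 rose against shCon (0.81) and did not pass against control (-0.24). ABCG1, the second efflux pump, passed neither test (-0.21 and 0.12), at 5.89 and 6.39 CPM in OC2 OE, against 6.82 and 4.45 CPM in shCon and 7.89 and 6.18 CPM in control. STARD4, a cytosolic sterol carrier, rose against control (0.39), a call that ended without control replicate 2 (0.32, adjusted p = 0.0861) or OC2 OE replicate 2 (0.30, 0.0918), and did not pass against shCon (0.21).

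The 2 reference sets of LNCaP differed from each other in these genes. They differed in ONECUT2 too, which was lower in shCon than in control (log2 fold change -0.41, SE 0.11, edgeR adjusted p = 0.0127). In shCon, 2 of the 29 genes were higher and 16 lower than in control (median log2 fold change -0.39), where 56.4% of 16790 genes were called (28.3% higher, 28.1% lower, median 0.00). With library totals in place of TMM, the count was 5 higher and 14 lower, and the median of all genes moved by 0.16. All 12 enzymes called were lower in shCon. INSIG1 (-1.66), FDFT1 (-1.30), CYP51A1 (-1.13), SREBF1 (-1.07), NR1H3 (-1.05) and IDI1 (-0.94) were lowest beside control, and INSIG2 was higher (0.74). SOAT1 was higher too (0.24), a call that ended without either shCon replicate (0.27, adjusted p = 0.108, and 0.22, 0.19) or without control replicate 2 (0.17, 0.114). The other falls were those of SREBF2 (-0.76), DHCR7 (-0.67), FDPS (-0.63), EBP (-0.62), MVD (-0.52), SQLE (-0.49), NSDHL (-0.48), LSS (-0.39), MVK (-0.33) and TM7SF2 (-0.32), of which those of MVK, LSS and TM7SF2 ended without at least 1 library (adjusted p up to 0.15, 0.059 and 0.0655). HMGCS1 (0.01), SCAP (0.08), MSMO1 (-0.15), ABCA1 (-0.51) and ABCG1 (-0.32) were among the 11 genes that did not pass. In the related list 12 of 35 tested genes were higher in shCon and 7 lower (54.3% called, beside 56.4% of all genes tested), with RNF145 at 1.89, NCEH1 at -1.03, LPCAT3 at -0.99 and SYVN1, a ubiquitin ligase, at -0.93.

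**Figure D3:**
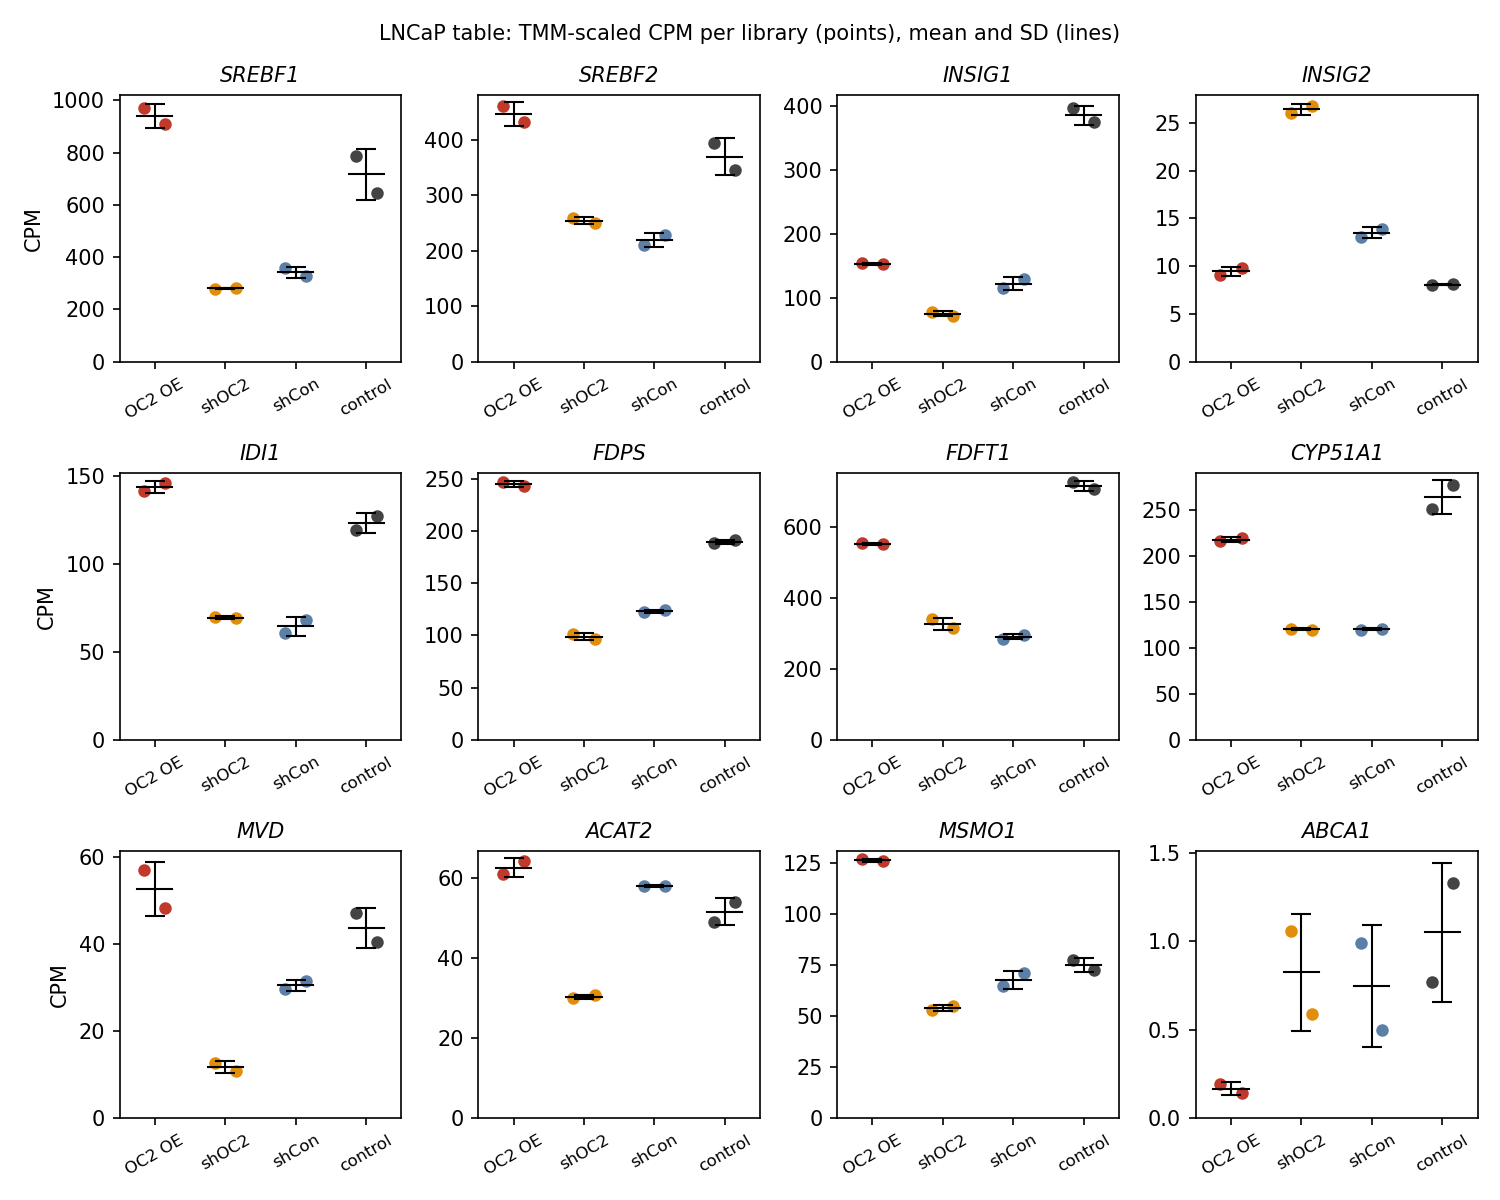
Levels of 12 sterol genes in LNCaP (CPM, vertical axes from 0), with 1 point per library, a horizontal line at the mean and bars of 1 SD (n = 2 each). SREBF1 stands at 972 and 908 CPM in OC2 OE and at 786 and 647 CPM in control, and MVD is lowest in shOC2 at 12.7 and 10.8 CPM.

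Beyond the 29 genes, a list of 40 related sterol genes had 36 tested members in each of these comparisons. Against control 14 rose and 8 fell (61.1% called, beside 60.8% of all genes tested), and against shCon 16 rose and 8 fell (66.7%, beside 64%). DHDDS, a dehydrodolichyl diphosphate synthase subunit on a branch from the isoprenoids, averaged 45.8 ± 0.63 CPM in OC2 OE, against 22.8 ± 0.04 CPM in shCon and 23.6 ± 1.92 CPM in control (SD, n = 2 each; log2 fold changes 1.00 and 0.94). RNF145, a sterol-linked ubiquitin ligase, rose against control (1.03) and fell against shCon (-0.85), and NCEH1, a cholesteryl ester hydrolase, fell against control (-1.08). LRP8, a lipoprotein receptor, rose against control (0.93). ERLIN1 (0.92) and LPCAT3 (0.89), an endoplasmic reticulum protein and a phospholipid remodelling enzyme, rose against shCon, and STARD5 fell (-0.88), a call that ended without OC2 OE replicate 1 (-0.90, adjusted p = 0.0724) or 2 (-0.84, 0.0821).

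The second comparison asked what the OC2 hairpin changes in LNCaP. In shOC2 cells, MVD, ACAT2, MVK, INSIG1 and HSD17B7 were lower and INSIG2, ABCG1, TM7SF2 and SOAT1 higher than in shCon. Of the 29 genes, 9 rose and 15 fell (median log2 fold change -0.20), where 54.1% of 16585 genes were called (27.3% higher, 26.8% lower, median 0.00). The 18 enzymes had 5 rises and 11 falls, yet their summed level was 1680 and 1614 CPM in shOC2, against 1595 and 1687 CPM in shCon. Without TM7SF2 the sum was 1382 and 1331 CPM in shOC2, against 1415 and 1509 CPM in shCon. The luminal markers summed to 5376 to 5415 CPM in shOC2, against 4128 to 4342 CPM in shCon. KLK3 was the largest part, at 2854 to 2903 CPM in shOC2 and 1773 to 1898 CPM in shCon. KLK2, TRPM8 and KRT8 were higher too, KRT18, FOXA1 and HOXB13 were lower, and EPCAM overlapped. The stromal markers summed to 19.7 to 25.6 CPM in shOC2, against 29.6 to 35.3 CPM in shCon, and the endothelial markers to 2.35 to 2.91 CPM in shOC2, against 7.44 to 9.02 CPM in shCon. Their part in the result was not tested. Leaving out a library leaves 1 in its group, and fewer of all the genes tested were then called. Calls that ended in this way, given below, therefore do not show that a result rests on that library.

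MVD fell the most, averaging 11.7 ± 1.33 CPM in shOC2 and 30.5 ± 1.27 CPM in shCon (SD, n = 2 each; log2 fold change -1.37, SE 0.09, adjusted p = 2.23e-06). ACAT2 fell by 0.93 (SE 0.06, adjusted p = 1.40e-06), MVK by 0.73 (SE 0.08, adjusted p = 4.89e-05), and INSIG1 (-0.70) and HSD17B7 (-0.65) fell too. HSD17B7 stood at 14.9 and 16.7 CPM in shOC2, against 25.0 and 24.7 CPM in shCon. These 5 falls, with those of FDPS (-0.31) and STARD4 (-0.53), were called without any 1 library. INSIG2 rose by 0.97 (SE 0.08, adjusted p = 7.49e-06), TM7SF2 by 0.71 (adjusted p = 3.23e-06) and SOAT1 by 0.64 (adjusted p = 1.65e-05). The SREBP genes moved little and in opposite directions, with SREBF1 at -0.28 and SREBF2 at 0.22. The SREBF1 call ended without shOC2 replicate 1 (-0.27, adjusted p = 0.0895) or 2 (-0.27, 0.0844), and the SREBF2 call without either (0.20, 0.109, and 0.25, 0.0669) or without shCon replicate 1 (0.16, 0.0584). ABCG1 stood at 9.59 and 11.2 CPM in shOC2, against 6.82 and 4.45 CPM in shCon, and its rise of 0.89 ended without shOC2 replicate 1 (1.00, adjusted p = 0.0904) or 2 (0.78, 0.138). In all, the calls of 14 of the 24 called members ended without at least 1 library, the others being HMGCS1, PMVK, FDFT1, SQLE, LSS, MSMO1, NSDHL, EBP, SC5D, DHCR7 and MYLIP, at -0.39 (PMVK) to 0.34 (NSDHL) with all libraries and an adjusted p of up to 0.261 without 1. SCAP (-0.07), NR1H3 (0.25), IDI1 (0.12), CYP51A1 (0.00) and ABCA1 (0.15) did not pass the test. In the related list, 16 of 35 tested genes rose and 9 fell (71.4% called, beside 54.1% of all genes tested). FAXDC2, a member of the fatty acid hydroxylase family, averaged 22.0 ± 2.54 CPM in shOC2 and 2.13 ± 0.16 CPM in shCon (log2 fold change 3.37). VLDLR, a lipoprotein receptor, rose (1.19), and LPIN1, a phosphatidate phosphatase, and RNF145 fell (-0.85 and -0.84).

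The third comparison asked what overexpressed OC2 changes in LAPC4. STARD4, SOAT1, SQLE and MVD were higher in OC2 OE than in Vec, and all 4 LXR and efflux genes, SREBF1 and TM7SF2 were lower. Of the 29 genes, 9 rose and 8 fell (median log2 fold change 0.03), where 61.1% of 16904 genes were called (32.1% higher, 29% lower, median 0.00). Vec replicate 3 was the highest Vec library for most of the set, and without it 13 rose and 8 fell. Over all genes tested, leaving out 1 library at a time gave 8856 to 12089 genes called, against 10329 with all libraries. The summed enzymes were 2373, 2382 and 2360 CPM in OC2 OE, against 2081, 2267 and 2757 CPM in Vec. The Vec libraries thus lay on both sides of OC2 OE. The luminal markers summed to 2317 to 2518 CPM in OC2 OE, against 2969 to 3042 CPM in Vec, and their part in the result was not tested. Of these markers, KRT8 and KRT18 were higher in OC2 OE, FOXA1, HOXB13, EPCAM, KLK2 and KLK3 were lower, and TRPM8 overlapped.

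STARD4 stood at 41.9, 49.6 and 46.1 CPM in OC2 OE, against 2.67, 3.93 and 5.88 CPM in Vec. The groups were far apart, an 11.0-fold difference (log2 fold change 3.46, SE 0.21, adjusted p = 5.58e-07). SOAT1 stood at 95.1, 107 and 99.3 CPM in OC2 OE, against 44.4, 50.7 and 54.5 CPM in Vec. SOAT1 rose by 1.01 (SE 0.08, adjusted p = 5.55e-06), with no overlap. SQLE stood at 108, 127 and 114 CPM in OC2 OE, against 53.0, 67.1 and 88.9 CPM in Vec, and rose by 0.74 (SE 0.16, adjusted p = 0.00237). MVD stood at 72.9, 58.9 and 69.4 CPM in OC2 OE, against 41.0, 39.6 and 42.1 CPM in Vec. It rose by 0.71 (SE 0.09, adjusted p = 6.54e-05), and MSMO1 (0.54), MVK (0.31), NSDHL (0.30), EBP (0.29) and ACAT2 (0.29) rose as well. The ACAT2 call ended without Vec replicate 2 (0.24, adjusted p = 0.0595). FDFT1 fell by 0.31 (adjusted p = 0.0394), a call that ended without any 1 of the OC2 OE replicates (-0.30 each, adjusted p = 0.11 to 0.118). Without Vec replicate 3 the FDFT1 value was -0.15 (adjusted p = 0.0331).

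SREBF1 stood at 86.0, 73.0 and 80.0 CPM in OC2 OE, against 174, 207 and 266 CPM in Vec. SREBF1 was below every Vec library and fell by 1.44 (SE 0.14, adjusted p = 1.52e-05). ABCG1 stood at 5.15, 4.54 and 4.88 CPM in OC2 OE, against 8.51, 11.9 and 20.6 CPM in Vec. It fell by 1.49 (SE 0.28, adjusted p = 0.00115), and by 1.07 without Vec replicate 3. ABCA1 stood at 9.80, 10.5 and 10.0 CPM in OC2 OE, against 13.0, 15.0 and 24.6 CPM in Vec. ABCA1 fell by 0.79, and by 0.47 without Vec replicate 3, a move of more than 1.5 times on the log2 scale. MYLIP stood at 15.4, 16.8 and 14.6 CPM in OC2 OE, against 22.8, 28.8 and 33.4 CPM in Vec, and fell by 0.86. NR1H3 stood at 17.8, 15.5 and 18.3 CPM in OC2 OE, against 25.8, 24.1 and 23.0 CPM in Vec. NR1H3 fell by 0.50 and was the exception among the LXR and efflux genes in that Vec replicate 3 was its lowest Vec library. TM7SF2 stood at 107, 93.5 and 101 CPM in OC2 OE, against 182, 191 and 216 CPM in Vec. TM7SF2 fell by 0.97 (SE 0.08, adjusted p = 5.92e-06) and SCAP by 0.34, with SCAP at 137, 124 and 136 CPM in OC2 OE, against 162, 168 and 171 CPM in Vec. INSIG1 stood at 134, 133 and 126 CPM in OC2 OE, against 99.8, 139 and 243 CPM in Vec, so the groups overlapped (-0.30, adjusted p = 0.323). It was called lower without Vec replicate 1 (-0.55, adjusted p = 0.0167), while without Vec replicate 3 its value was 0.13 (adjusted p = 0.192). SREBF2 stood at 224, 210 and 221 CPM in OC2 OE, against 175, 194 and 243 CPM in Vec, and INSIG2 at 23.9, 25.1 and 22.1 CPM, against 22.4, 21.5 and 17.1 CPM. Neither passed the test (0.10 and 0.22). Without Vec replicate 3, SREBF2 (0.24, adjusted p = 0.00167), HMGCS1 (0.22, 0.00258), DHCR7 (0.28, 4.98e-04) and HSD17B7 (0.24, 0.0166) were called higher. PMVK, IDI1, FDPS, LSS, CYP51A1 and SC5D did not pass (log2 fold changes from -0.14 to 0.03).

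**Figure D4:**
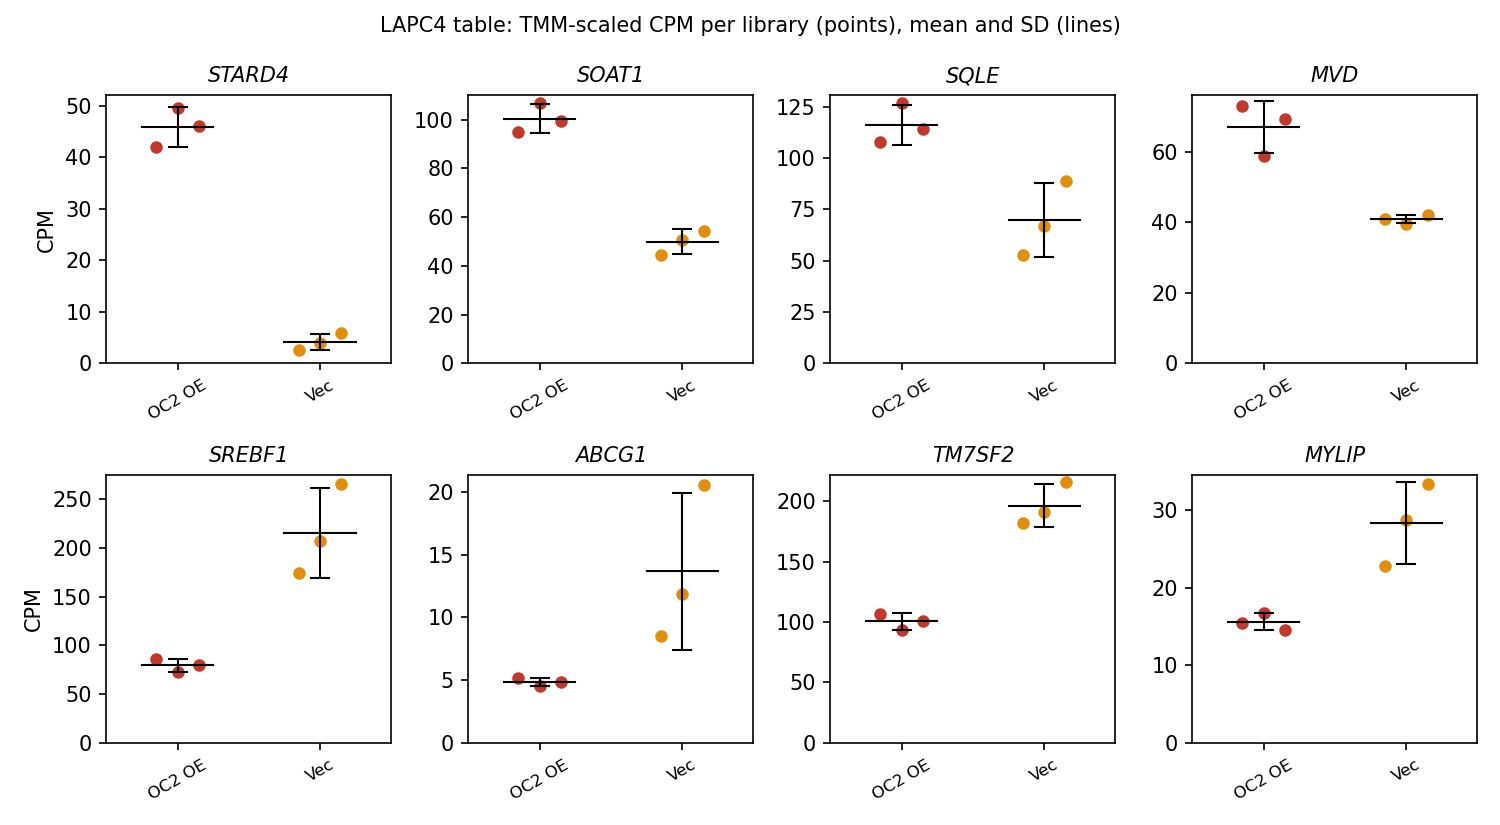
Levels of 8 sterol genes in LAPC4 (CPM, vertical axes from 0), with 1 point per library, a horizontal line at the mean and bars of 1 SD (n = 3 each). STARD4 stands at 41.9 to 49.6 CPM in OC2 OE and at 2.67 to 5.88 CPM in Vec, and SREBF1 at 73.0 to 86.0 CPM in OC2 OE and 174 to 266 CPM in Vec.

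In the related list, 15 of 37 tested genes rose in LAPC4 OC2 OE and 11 fell. All genes tested had a share called of 61.1%, and the list 70.3%. Among its genes at 5 CPM or more in the higher group, NCEH1 averaged 137 ± 10.7 CPM in OC2 OE and 34.5 ± 2.81 CPM in Vec (SD, n = 3 each; log2 fold change 1.99), and LIPA, the lysosomal acid lipase, averaged 65.9 ± 1.26 CPM in OC2 OE and 19.6 ± 1.94 CPM in Vec (1.75). NPC1, which exports cholesterol from lysosomes, averaged 129 ± 7.48 CPM in OC2 OE and 48.7 ± 4.26 CPM in Vec (1.40). GRAMD1C, a sterol transfer protein at membrane contacts, rose by 1.58.

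The LAPC4 response was then set against the LNCaP response in a joint model, a test of the difference between the lines' ratios. It was run with each LNCaP reference set, and both runs use the same LAPC4 and LNCaP OC2 OE libraries. With the LNCaP control set, the LAPC4 response was higher for 6 members and lower for 7, where 49.5% of 19633 genes were called (25.4% higher, 24.1% lower). With shCon it was higher for 3 and lower for 15, where 49.3% of 19761 genes were called (22.9% higher, 26.4% lower). With library totals in place of TMM the shCon count was 6 and 14, and the median of all genes moved by 0.24. STARD4 differed most, by 3.08 (SE 0.28) with control and 3.19 (SE 0.27) with shCon on the log2 scale. SREBF1, which fell in LAPC4 and rose in LNCaP, differed by -1.81 (SE 0.20) and -2.95 (SE 0.20). SQLE (1.19 and 0.63), SCAP (-0.61 and -0.60), TM7SF2 (-0.52 and -0.91), ABCG1 (-1.28 and -1.67), FDPS (-0.43 and -1.12), LSS (-0.39 and -0.85) and HMGCS1 (-0.59 and -0.65) were called in the same direction with both sets. Calls that ended without a single library were those of HMGCS1 with both sets (adjusted p up to 0.0862 and 0.077), LSS and ABCG1 with control (up to 0.126 and 0.0856) and SQLE with shCon (up to 0.085). SOAT1 did not pass with either set (0.03, SE 0.13, and 0.20, SE 0.13).

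The drug comparison asked what the combination and enzalutamide alone change in LNCaP. In Combine, most enzymes, both SREBP genes and INSIG1 were lower than in vehicle, and INSIG2, ABCG1, TM7SF2 and ABCA1 were higher. Of the 29 genes, 5 rose and 20 fell (median log2 fold change -0.40), where 46.8% of 17438 genes were called (23.2% higher, 23.6% lower, median 0.01). The 3 drug arms were fitted together. The calls, SEs and p-values of Combine against vehicle therefore also carry the spread of the Enza libraries. Without Combine replicate 2, 4 rose and 19 fell. Over all genes tested, leaving out 1 library at a time gave 6577 to 7080 genes called, against 8155 with all libraries. All 7 mevalonate enzymes and all 3 of the squalene arm fell. The luminal markers summed to 2720 to 2982 CPM in Combine, 1641 to 1956 CPM in Enza and 4118 to 4470 CPM in vehicle. KLK3 alone was 57.5 to 74.0 CPM in Combine, 137 to 402 CPM in Enza and 1534 to 1829 CPM in vehicle. In Combine against vehicle, KLK2, KRT18, TRPM8 and EPCAM were lower too, FOXA1 and HOXB13 were higher, and KRT8 overlapped. The endothelial markers summed to 5.85 to 9.50 CPM in Combine, 5.31 to 7.00 CPM in Enza and 17.2 to 19.9 CPM in vehicle, with 1 or 2 of the 3 at 0. The blood markers summed to 2.17 to 4.96 CPM in Combine, 0.0311 to 0.0609 CPM in Enza and 5.75 to 10.3 CPM in vehicle, and the stromal markers to 32.5 to 39.7 CPM in Combine, 27.5 to 49.9 CPM in Enza and 21.4 to 29.8 CPM in vehicle. The part of these 4 marker lists in the result was not tested. The 18 enzymes summed to 2002, 2039 and 2053 CPM in Combine, against 2194, 2132 and 2214 CPM in vehicle. Without TM7SF2 the sum was 1205 to 1225 CPM in Combine, against 1773 to 1851 CPM in vehicle.

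FDFT1 stood at 168, 163 and 173 CPM in Combine, 285, 547 and 500 CPM in Enza and 375, 360 and 386 CPM in vehicle. FDFT1 fell by 1.15 in Combine against vehicle (SE 0.19, adjusted p = 8.84e-04), with no overlap. Its SD was 4.89 CPM in Combine and 12.6 CPM in vehicle but 140 CPM in Enza, whose spread enters that SE and p. FDPS stood at 68.0, 69.3 and 74.1 CPM in Combine, 31.2, 43.2 and 37.2 CPM in Enza and 150, 146 and 154 CPM in vehicle, and fell by 1.09 in Combine (SE 0.10, adjusted p = 3.44e-05). EBP stood at 41.7, 42.2 and 45.0 CPM in Combine, 38.1, 73.8 and 74.9 CPM in Enza and 85.9, 86.0 and 90.7 CPM in vehicle. EBP fell by 1.03 in Combine, where the libraries lay close together. MVK stood at 23.4, 25.5 and 24.0 CPM in Combine, 18.5, 21.0 and 20.5 CPM in Enza and 48.7, 39.3 and 47.7 CPM in vehicle, and fell by 0.90. The other falls among enzymes were between 0.30 (PMVK) and 0.79 (ACAT2) in size. Those of PMVK and NSDHL (-0.39) ended without Combine replicate 1 (PMVK -0.27, adjusted p = 0.0541; NSDHL -0.37, 0.0593), and also without vehicle replicate 1 for PMVK (-0.28, 0.0539) and without Combine replicate 2 (-0.35, 0.0619) or vehicle replicate 2 (-0.36, 0.0648) for NSDHL. TM7SF2 stood at 797, 820 and 828 CPM in Combine, 430, 446 and 405 CPM in Enza and 344, 359 and 367 CPM in vehicle. TM7SF2 rose by 1.19 (SE 0.07, adjusted p = 2.05e-06) and SC5D rose by 0.45. MSMO1 (0.12) and CYP51A1 (-0.40, adjusted p = 0.0527) did not pass, and CYP51A1 was called lower in DESeq2 (adjusted p = 0.034) and in a fit of the 2 arms alone (-0.39, adjusted p = 4.19e-04).

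Among the regulators, INSIG1 stood at 71.2, 61.2 and 74.4 CPM in Combine, 103, 198 and 172 CPM in Enza and 164, 145 and 160 CPM in vehicle. INSIG2 stood at 38.7, 47.5 and 38.1 CPM in Combine, 84.4, 55.6 and 53.2 CPM in Enza and 16.7, 16.1 and 12.7 CPM in vehicle. The INSIG genes moved in opposite directions in Combine against vehicle, INSIG1 by -1.18 (SE 0.20, adjusted p = 9.07e-04) and INSIG2 by 1.45 (SE 0.19, adjusted p = 2.03e-04). SREBF1 stood at 443, 386 and 453 CPM in Combine, 208, 303 and 271 CPM in Enza and 616, 603 and 634 CPM in vehicle. SREBF2 stood at 269, 240 and 274 CPM in Combine, 249, 372 and 352 CPM in Enza and 414, 421 and 426 CPM in vehicle. Both were below vehicle in each Combine library and fell by 0.53 and 0.69. SCAP fell by 0.31, at 139, 135 and 137 CPM in Combine, 137, 129 and 123 CPM in Enza and 177, 160 and 172 CPM in vehicle. ABCG1 stood at 28.2, 27.4 and 29.4 CPM in Combine, 20.6, 12.9 and 12.2 CPM in Enza and 10.0, 11.4 and 9.61 CPM in vehicle. Combine and vehicle did not overlap, and ABCG1 rose by 1.45 in Combine (SE 0.19, adjusted p = 1.86e-04). ABCA1 stood at 2.99, 4.64 and 3.45 CPM in Combine, 3.04, 1.37 and 1.44 CPM in Enza and 1.51, 2.00 and 1.45 CPM in vehicle. Its rise of 1.16 in Combine ended without Combine replicate 2 (0.96, adjusted p = 0.0663), vehicle replicate 1 (1.10, 0.0603) or vehicle replicate 3 (1.07, 0.0637). SOAT1 (-0.55) and STARD4 (-0.39) fell, and NR1H3 (0.01) and MYLIP (0.02) did not pass. NR1H3 stood at 17.3, 11.2 and 14.4 CPM in Combine, 11.1, 13.5 and 12.7 CPM in Enza and 14.1, 13.6 and 14.8 CPM in vehicle, so all 3 groups were close. In the related list 5 of 35 tested genes rose and 17 fell (62.9% called, beside 46.8% of all genes tested). LBR, which also reduces sterols at C14 and is the enzyme beside TM7SF2 at that step, averaged 30.6 ± 1.14 CPM in Combine and 79.0 ± 1.43 CPM in vehicle (SD, n = 3 each; log2 fold change -1.37). NPC1 (-1.35), the lipoprotein receptor SCARB1 (-1.17) and LPIN1 (-1.12) fell too.

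**Figure D5:**
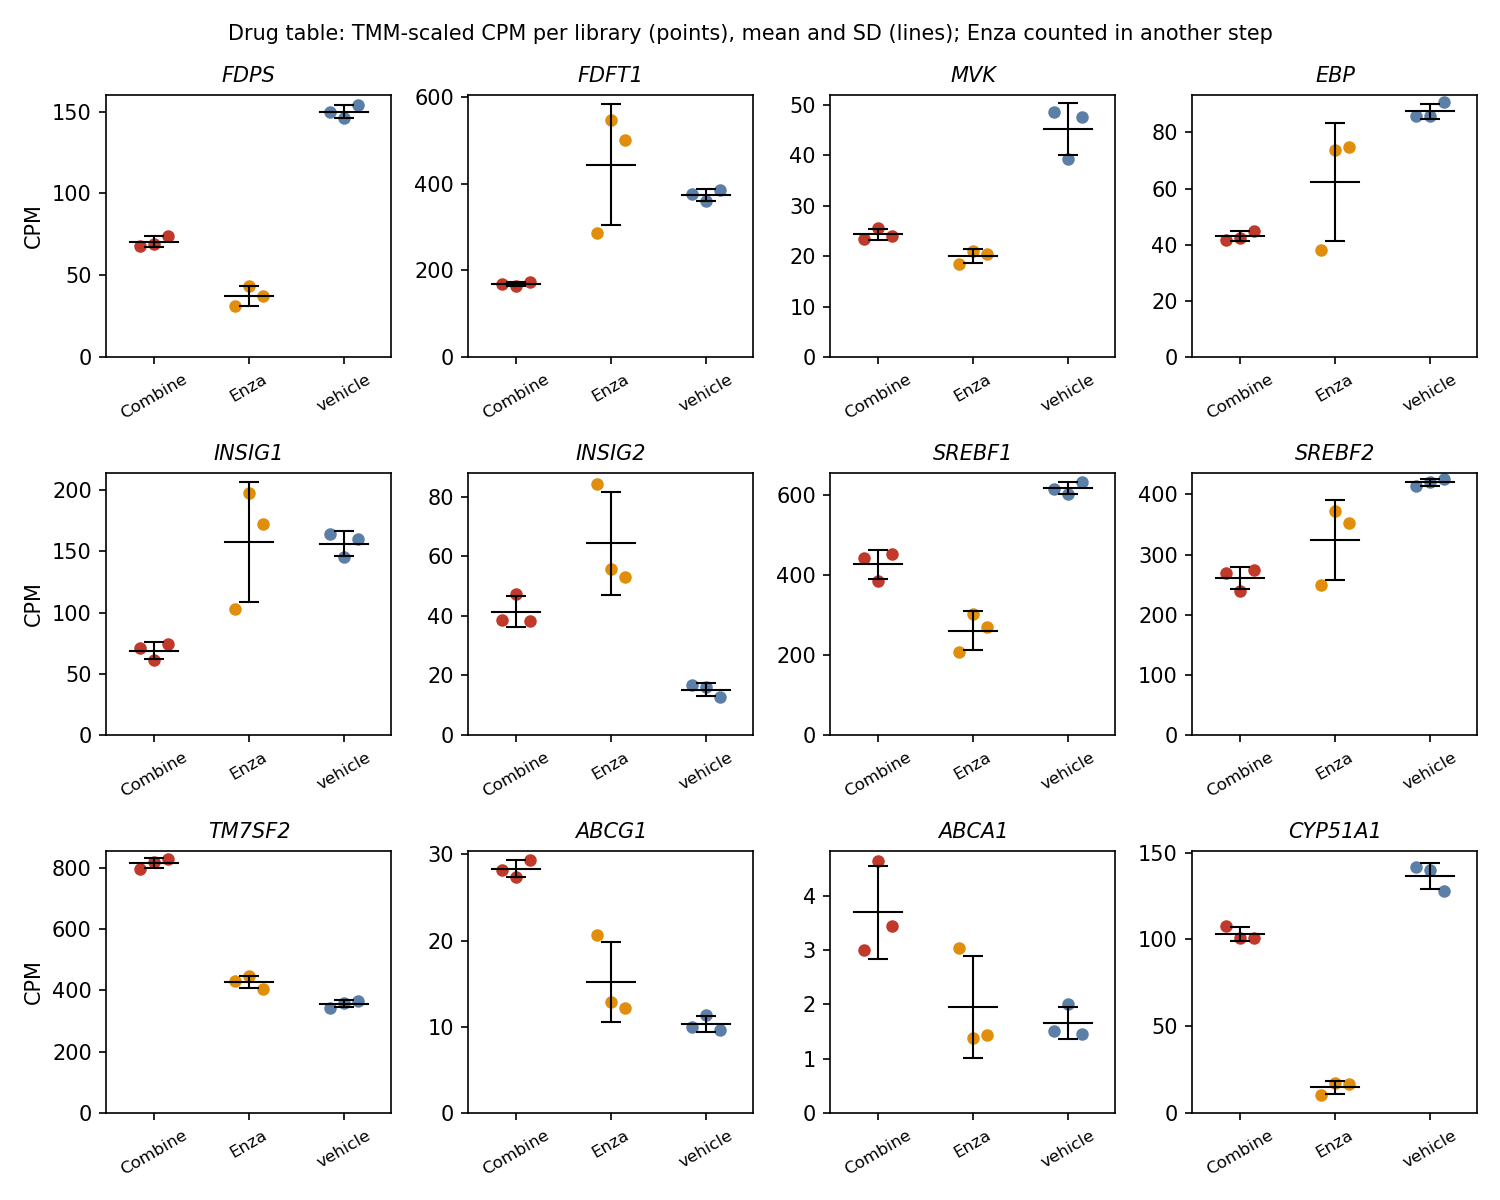
Levels of 12 sterol genes in the drug experiment (CPM, vertical axes from 0), with 1 point per library, a horizontal line at the mean and bars of 1 SD (n = 3 each); Enza came from another counting step. TM7SF2 stands at 797 to 828 CPM in Combine and 344 to 367 CPM in vehicle, and CYP51A1 at 10.2 to 17.1 CPM in Enza beside 128 to 142 CPM in vehicle.

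Against vehicle, Enza had 7 rises and 11 falls among the 29 genes, where 70.3% of 17438 genes were called (34.7% higher, 35.6% lower). That share and the members' values include the other counting step, whose part cannot be told apart from that of the drug. With library totals in place of TMM the count was 12 higher and 7 lower, and the median of all genes moved by 0.34. Without the first Enza library the count was 10 and 14. Over all genes tested, leaving out 1 library at a time gave 11389 to 13038 genes called, against 12264 with all libraries. CYP51A1 was 10.2 to 17.1 CPM in Enza, against 128 to 142 CPM in vehicle (log2 fold change -3.22), close to its level in the other whole-count columns, those of LAPC4. KRT18, a luminal keratin outside the set, was 83.8 to 86.6 CPM in Enza, against 497 to 518 CPM in vehicle, and 447 to 509 CPM in LAPC4. FDPS (-2.01), ACAT2 (-1.98), SREBF1 (-1.24) and MVK (-1.18) fell, of which ACAT2 stood at 11.9, 16.7 and 15.5 CPM in Enza, against 61.6, 56.3 and 55.9 CPM in vehicle. INSIG2 rose by 2.09 (SE 0.19, adjusted p = 4.47e-06), and SC5D (0.66), MYLIP (0.55) and MSMO1 (0.48) rose. The smaller rises of ABCG1 (0.56), STARD4 (0.34) and TM7SF2 (0.26) ended without vehicle replicate 1 (0.52, adjusted p = 0.0632; 0.29, 0.0612; 0.22, 0.051), and that of ABCG1 also without vehicle replicate 3 (0.49, 0.0744). Without the first Enza library, ABCG1 was at 0.27 (adjusted p = 0.028), ABCA1 at -0.24 (0.434), SREBF2 at -0.22 (0.0146) and NSDHL at -0.22 (0.0219). SREBF2 fell by 0.37, a call that ended without any 1 vehicle library (adjusted p = 0.0502 to 0.0599), and NSDHL fell by 0.34, a call that ended without vehicle replicate 2 (-0.32, adjusted p = 0.059) and stood at 0.00 with library totals. IDI1, LSS, HSD17B7 and SCAP also fell (-0.39 to -0.56). EBP (-0.49, adjusted p = 0.0504) and DHCR7 (-0.35, 0.0543) missed the threshold and were called lower without any 1 Enza library and in DESeq2, although smaller without the first (-0.24, adjusted p = 0.00388, and -0.17, 0.0332). SQLE and MVD were called without that library too (0.28, adjusted p = 7.68e-04, and -0.20, 0.0497). MVD (-0.18), SQLE (0.13), SOAT1 (0.10), ABCA1 (0.24) and NR1H3 (-0.19) did not pass, nor did HMGCS1 (-0.02) and PMVK (-0.13), which were called higher with library totals (0.33 and 0.21). FDFT1 (0.25) and INSIG1 (0.01) did not pass, but the first Enza library was low for both, and without it FDFT1 was 0.48 (adjusted p = 4.34e-05) and INSIG1 0.24 (adjusted p = 0.0338). Among related genes 7 of 35 rose and 16 fell (65.7% called, beside 70.3% of all genes tested), with NCEH1 at 1.68, SCARB1 at -1.64 and STARD5 at -1.51.

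Combine was also set against Enza, across the 2 counting steps. Combine shares its vehicle group with Enza in the comparisons above, and here 8 members rose and 11 fell, where 61.9% of 17438 genes were called (31.4% higher, 30.4% lower). With library totals the count was 6 higher and 18 lower, and the median of all genes moved by -0.26. FDFT1 fell by 1.40 (SE 0.19, adjusted p = 1.25e-04), INSIG1 by 1.19, SQLE by 0.73, STARD4 by 0.73, SOAT1 by 0.66 and INSIG2 by 0.64, and without the first Enza library these were -1.64, -1.42, -0.88, -0.75, -0.61 and -0.39. CYP51A1 (2.82), ACAT2 (1.19), TM7SF2 (0.93), FDPS (0.92), ABCG1 (0.89) and SREBF1 (0.71) rose, and were called without that library too. HMGCS1 (-0.58), MYLIP (-0.53) and MSMO1 (-0.36) fell. ABCA1 (0.92), EBP (-0.54), MVK (0.28) and MVD (-0.23) were called, and these calls ended without at least 1 library (adjusted p up to 0.107, 0.161, 0.0784 and 0.157). Without the first Enza library ABCA1 was at 1.40, EBP at -0.79, MVK at 0.23 (adjusted p = 0.0546) and MVD at -0.20 (0.0552). SREBF2 (-0.31) and DHCR7 (-0.28) did not pass but were called lower without the first Enza library (-0.47 and -0.46), as was PMVK (-0.23). PMVK, IDI1, LSS, NSDHL, HSD17B7, SC5D and NR1H3 lay between -0.20 and 0.20 and did not pass, and SCAP (0.08) was called lower with library totals (-0.18). Of the related list 11 of 35 rose and 13 fell (68.6% called, beside 61.9% of all genes tested), with LPCAT3 at 2.05, STARD5 at 1.86, NCEH1 at -1.86 and NPC1 at -1.46.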

How the data were processed

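Groups follow the sample labels. FastQC 0.9.0, Bowtie2 and the build hg38 are named per the submitters' processing notes. Which counter, strand setting and annotation were used is not given in the sources used here. For LAPC4 and Enza the authors deposited whole-number read counts. For the other LNCaP groups the authors deposited estimated counts, which were rounded to whole numbers here. The Enza columns were mapped to their group, with no replicate number.

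Comparisons were tested with edgeR 4.0.16 in R 4.3.3: TMM scaling, filterByExpr, the quasi-likelihood F-test and Benjamini-Hochberg adjustment over all genes tested, with a threshold of 0.05. "Rose" and "fell" mean an adjusted p under it. Each OE or hairpin comparison was fitted on its pair of groups, the 3 drug arms together, and the difference between lines as an interaction over genes in both tables. Standard errors come from the F statistic. Levels use a single TMM scaling per table, so ratios of levels can differ slightly from fitted fold changes. The procedure was tested on simulated data.

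The members, the lists and the tests were chosen with earlier results of these data known. Library values are printed for up to 8 called members a comparison with the largest change and at least 5 CPM in the higher group, and for the 8 regulators SREBF1, SREBF2, SCAP, INSIG1, INSIG2, ABCA1, ABCG1 and NR1H3. Up to 4 related genes a comparison were named by the same rule. Symbols were matched through GENCODE 29 and RefSeq, with 99.5%, 98.6% and 62.9% of the identifiers of the LNCaP, LAPC4 and drug tables found. Alternatives were other scalings, no filter on low counts, DESeq2 1.42.0, each library left out, a replicate block, and fits on more or fewer groups.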

Additional observations from a re-analysis of the deposited data

Results flagged for a closer look

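For 9 genes the response to overexpressed OC2 differed between LAPC4 and LNCaP in the interaction test with either LNCaP control set and in the same direction. Both tests use the same LAPC4 and LNCaP OC2 OE libraries, so agreement between them is partly built in. The calls of HMGCS1, LSS, ABCG1 and SQLE ended without some library in these tests, as given above. The values are the LAPC4 minus the LNCaP log2 response, with the control set first and shCon after it. STARD4 differed by 3.08 and 3.19, since it rose by 3.46 in LAPC4 and by 0.39 in LNCaP against control. SREBF1 differed by -1.81 and -2.95, and ABCG1 by -1.28 and -1.67. SQLE differed by 1.19 and 0.63, with a rise in LAPC4 (0.74) and a fall in LNCaP against control (-0.45). HMGCS1 differed by -0.59 and -0.65, FDPS by -0.43 and -1.12, LSS by -0.39 and -0.85, TM7SF2 by -0.52 and -0.91, and SCAP by -0.61 and -0.60. Line, medium and counting step change together between the tables and cannot be told apart.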

How the results depend on the processing

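Of 3730 alternative values for single genes, 3442 stayed on their side of the threshold, among them uncalled values whose sign changed, 78 gained a call, 206 lost one and 4 changed sign with a call under at least 1 of the settings. These 4 came from library totals alone: HMGCS1 (0.33), PMVK (0.21) and NSDHL (0.00) in Enza against vehicle, and SCAP (-0.18) in Combine against Enza. That scaling moved the median of all genes by -0.17 in LNCaP OC2 OE against shCon, 0.16 in shCon against control, 0.34 in Enza against vehicle, -0.26 in Combine against Enza and 0.24 in the shCon interaction; dropping the filter moved the Enza contrasts by 0.27 and -0.24, and leaving out LNCaP OC2 OE replicate 2 moved the shCon interaction by 0.11. Library totals also gave 5 members lower in OC2 OE against shCon, 5 higher in shCon against control, 12 higher and 7 lower in Enza against vehicle, 18 lower in Combine against Enza and 6 higher in the shCon interaction. The shares of all genes called with library totals are not given here. With no filter, and likewise with DESeq2, 1 member was lower in OC2 OE against shCon and 1 higher in shCon against control, and with no filter 5 were higher in shOC2. The cause was not tested.

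Leaving out 1 library at a time gave, for LNCaP OC2 OE against control, 8 to 11 members higher and 6 to 10 lower. Against shCon it gave 7077 to 8375 genes called in all and 0 to 2 members lower; at 0 lower, without OC2 OE replicate 1, edgeR called 16 members higher. For shCon against control 1 to 2 were higher. For shOC2 against shCon 5076 to 7863 genes were called, with 3 to 10 members higher and 7 to 15 lower. Enza against vehicle had 4 to 10 higher. The interaction had 4 to 11 higher and 4 to 9 lower with control, and 2 to 6 higher with shCon. With 1 library left in an arm, that library is assumed to vary like the other group. Of 206 lost calls, 153 came from leaving out a library.

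Same-numbered replicates share a number, and the labels do not say what else they share. Deviations of same-numbered libraries correlated between -0.0832 and 0.0865 in the LNCaP pairs. In OC2 OE against control (0.0865) all 4 libraries were closest to their own number, and in the other LNCaP pairs 0 were. With 2 libraries a group the deviations mirror each other. Both replicates then share the same correlation, and its sign alone sets this count to 4 or 0. The correlations were between -0.104 and -0.0241 in LAPC4 (0 of 6 libraries closest to their own number). They were between 0.0246 and 0.115 in Combine and vehicle (4 of 6). A replicate block gave 14 members higher and 11 lower in OC2 OE against control, 20 and 3 against shCon, 2 and 16 in shCon against control, 9 and 15 in shOC2, 9 and 8 in LAPC4 and 5 and 21 in Combine, with 5 single-gene calls gained and none lost. No paired analysis was possible for the Enza contrasts, because the Enza columns carry no number, nor for the differences between lines.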
